A study of Mus musculus with 8 samples.

Results

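Fatty acid uptake and activation in the heart was followed through 7 genes, Lpl, Gpihbp1, Vldlr, Cd36, Slc27a1, Fabp3 and Acsl1, which were chosen by name from the 25929 genes listed for mouse heart RNA. All 7 were measured in every library and all 7 passed the filter on low values, which kept 14442 genes. The RNA came from 4 groups of 2 libraries each. WT-Sham and WT-TAC were wild-type mice of the C57BL/6 strain. Fat1-Sham and Fat1-TAC were fat-1 littermates, which carry the n-3 fatty acid desaturase of Caenorhabditis elegans and convert n-6 into n-3 polyunsaturated fatty acids. The mice were 3 months old when the transverse aortic constriction (TAC) was placed, and pressure overload lasted 8 weeks. Sham animals had the chest opened without a constriction. The labels call the tissue ventricular and the methods name whole hearts. The fat-1 libraries carry the strain label Fat-1, the promoter that drives the transgene is not given in the sources used here, and the transgene itself was not analysed here. The labels state that the samples of a group were independent.

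The working heart draws most of its energy from long-chain fatty acids. Lipoprotein lipase (Lpl) is secreted by muscle cells, is carried to the capillary lumen by the endothelial protein Gpihbp1, and releases fatty acids from circulating triglyceride, while the very low density lipoprotein receptor (Vldlr) binds triglyceride-rich particles. The scavenger receptor Cd36 and the transport protein Slc27a1 (FATP1) take fatty acids up across membranes, Fabp3 binds them in the cytosol of heart muscle, and the acyl-CoA synthetase Acsl1 activates them for oxidation. Several of these genes are known targets of the lipid-sensing PPAR receptors.

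Upstream sequence is shown for the receptor Cd36, the synthetase Acsl1 and the transporter Slc27a1, the last because its level followed a pattern of its own in the libraries described below. Each is the 250 bases before a RefSeq transcription start (GRCm38.p6), written 5′ to 3′ on the gene's strand. Capitals mark matches, on either strand, to the nuclear receptor half-site AGGTCA, the GC box GGGCGG or the CCAAT box.
Cd36, chr5:17835897-17836146, minus strand: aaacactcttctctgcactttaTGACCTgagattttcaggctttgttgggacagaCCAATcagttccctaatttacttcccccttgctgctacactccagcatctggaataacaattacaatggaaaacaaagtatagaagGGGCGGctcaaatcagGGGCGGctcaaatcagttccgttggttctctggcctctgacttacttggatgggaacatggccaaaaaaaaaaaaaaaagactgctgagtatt
Acsl1, chr8:46470787-46471036, plus strand: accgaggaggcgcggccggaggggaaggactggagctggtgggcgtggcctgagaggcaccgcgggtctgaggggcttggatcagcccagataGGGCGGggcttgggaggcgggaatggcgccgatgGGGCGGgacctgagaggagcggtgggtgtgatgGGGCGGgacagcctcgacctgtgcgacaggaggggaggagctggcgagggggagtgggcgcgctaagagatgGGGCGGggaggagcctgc
Slc27a1, chr8:71568621-71568870, plus strand: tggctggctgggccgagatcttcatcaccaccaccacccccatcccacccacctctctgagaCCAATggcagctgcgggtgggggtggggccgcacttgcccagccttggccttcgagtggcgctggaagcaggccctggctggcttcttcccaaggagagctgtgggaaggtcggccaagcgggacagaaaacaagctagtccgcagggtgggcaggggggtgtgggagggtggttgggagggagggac

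The Cd36 window held 1 half-site, 2 GC boxes and 1 CCAAT box, and lay 52905 bases inside the outermost annotated start of the gene. The Acsl1 window held 4 GC boxes, and the Slc27a1 window held 1 CCAAT box. Of 32851 promoter windows of this length, 14.0% held the half-site, 32.7% the GC box and 33.8% the CCAAT box, so each of these matches is common. For each of the 5 genes with a window, only the window nearest the annotated gene start was scanned. Slc27a1 had 3 windows, Acsl1 2 and Vldlr 2. The PPAR response element, a direct repeat of the half-site around a spacer base, was found in 0.0335% of windows and in none of the 5 scanned. The TATA box TATAAA, found in 12.4% of windows, also had no match in these 5. The scanned windows of Fabp3 and Vldlr held no match to any of the motifs. GC content was 43.2% for Cd36, 72.0% for Acsl1 and 66.4% for Slc27a1 against a median of 52.4%. Lpl and Gpihbp1 were not analysed here for promoter sequence.

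The libraries held between 14163994 and 21218331 fragments, and WT-TAC1 stood apart from the others. All 12 cardiomyocyte markers were at their lowest there, at 42.3% to 63.0% of the mean of the other 7 libraries. The 7 thymus and lymphocyte markers summed to 1181 FPKM in WT-TAC1 and to between 1.39 and 8.43 FPKM elsewhere, with 3 of the 7 at 0 in WT-Sham1 and in Fat1-Sham2. The 10 lung and airway markers summed to 1517 and 3757 FPKM in the WT-TAC libraries, to 82.7 FPKM in Fat1-Sham1 and to under 1 FPKM in the other 5 libraries. The 10 adipocyte markers summed to 747 and 1045 FPKM in WT-TAC and to between 70.3 and 381 FPKM elsewhere, and the 4 atrial markers to between 926 and 3542 FPKM in the WT libraries and Fat1-Sham1 and between 16.8 and 39.1 FPKM in the other 3. The part of these values in the results was not tested. In RNA from whole tissue, fewer cells of a type and less RNA per cell cannot be told apart.

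FPKM, fragments counted relative to transcript length and to the mapped fragments of the library, is a level per length, so the genes can be compared with each other. Fabp3 was the most abundant of the 7 in each of the 8 libraries, followed by Lpl, Cd36 and Acsl1 in that order. Their means over the 8 libraries were 2784 FPKM for Fabp3, 1790.0 FPKM for Lpl, 583 FPKM for Cd36 and 474 FPKM for Acsl1. Vldlr averaged 108 FPKM, Slc27a1 101 FPKM and Gpihbp1 63.4 FPKM, and Vldlr was above Gpihbp1 in all 8 libraries, while Slc27a1 changed places with each of them, so its place was within the spread. The 7 genes together made up 0.746% to 0.948% of all FPKM in 7 libraries and 0.434% in WT-TAC1. Even Gpihbp1, the least abundant, rested on 646 to 1369 fragments per library, and Lpl on 46449 to 115951. For Gpihbp1, counting error was small beside the 1.70-fold difference between the WT-TAC libraries. It was not small beside the 1.03-fold difference between the Fat1-Sham libraries.

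Lpl, the lipase that frees fatty acids from triglyceride (ENSMUSG00000015568, chr8:68880491-68907448, GRCm38), stood at 1906 and 2063 FPKM in WT-Sham and at 884 and 1619 FPKM in WT-TAC. In the fat-1 hearts it stood at 2091 and 2207 FPKM after sham surgery and at 1713 and 1836 FPKM after TAC. All 4 TAC libraries lay below all 4 sham libraries. Gpihbp1, its capillary carrier (ENSMUSG00000022579, chr15:75596628-75599481), was at 76.7 and 56.8 FPKM in WT-Sham, 34.8 and 59.2 in WT-TAC, 64.3 and 66.2 in Fat1-Sham and 78.3 and 71.1 in Fat1-TAC. WT-TAC1 was the low library, and WT-TAC2 lay within the WT-Sham range. Vldlr, the lipoprotein receptor (ENSMUSG00000024924, chr19:27216484-27254231), was at 111 and 104.27 FPKM in WT-Sham, 60.4 and 104.24 in WT-TAC, 130 and 127 in Fat1-Sham and 112 and 115 in Fat1-TAC. Again only WT-TAC1 was far from the rest.

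Cd36, the main fatty acid receptor of heart muscle and its capillaries (ENSMUSG00000002944, chr5:17781690-17888801), was at 608 and 615 FPKM in WT-Sham, 296 and 517 in WT-TAC, 649 and 686 in Fat1-Sham and 732 and 560 in Fat1-TAC. The 2 Fat1-TAC libraries lay on both sides of the Fat1-Sham values. Slc27a1, the transport protein (ENSMUSG00000031808, chr8:71568882-71587302), was at 75.7 and 101 FPKM in WT-Sham, 85.3 and 119.6 in WT-TAC, 106.6 and 97.4 in Fat1-Sham and 108.5 and 111 in Fat1-TAC. It was the one member that was not lowest in WT-TAC1, where it stood at 82.9% of the mean of the other 7 libraries, and WT-Sham1 was lower still. The other 6 members stood at 45.6% to 54.9% of that mean in WT-TAC1, within the 42.3% to 63.0% of the cardiomyocyte markers.

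Fabp3, the fatty acid binding protein of heart muscle (ENSMUSG00000028773, chr4:130308595-130315463), was at 2804.5 and 2436.5 FPKM in WT-Sham, 1362 and 2467 in WT-TAC, 2632 and 3066 in Fat1-Sham and 3955 and 3552.5 in Fat1-TAC. The 2 Fat1-TAC libraries were the highest of the 8. Its exons share 80 bases with Gm10570 and 81 bases with Zcchc17 on the opposite strand, which averaged 0.637 and 19.8 FPKM, and strand was not stated for the counting. Acsl1, the synthetase (ENSMUSG00000018796, chr8:46471037-46536051), was at 441 and 542 FPKM in WT-Sham, 276 and 475 in WT-TAC, 522 and 588 in Fat1-Sham and 468 and 483 in Fat1-TAC. It shares exonic sequence with Gm45244 on the opposite strand, which averaged 0.0248 FPKM.

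**Figure D1:**
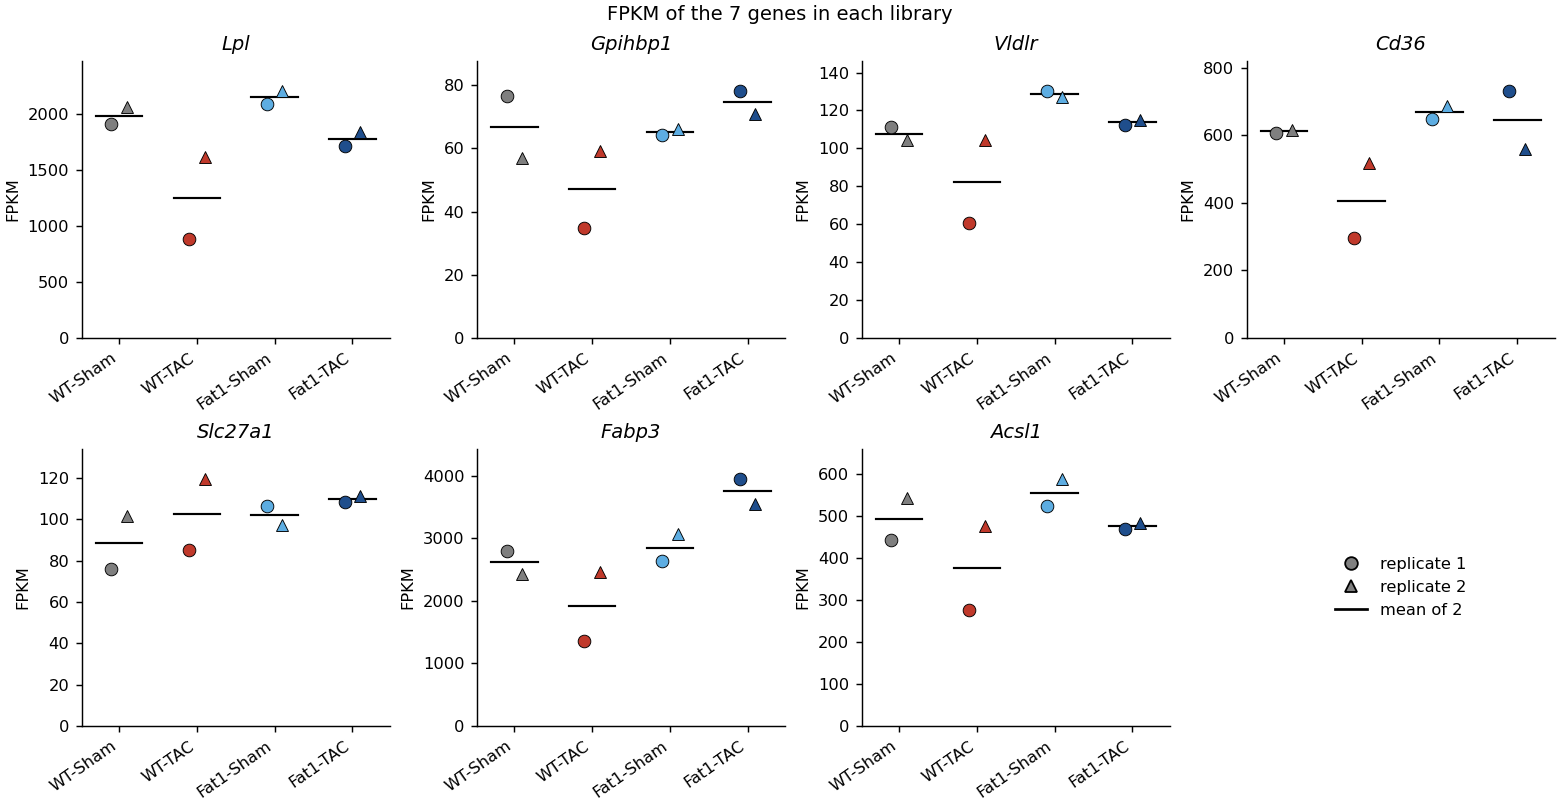
FPKM of the 7 genes (vertical axes, each from 0) in the 4 groups, with circles for replicate 1, triangles for replicate 2 and a line at the mean of the 2 libraries. The WT-TAC circle is the lowest point for every gene except Slc27a1, and for Lpl all 4 TAC points lie below all 4 sham points.

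The first comparison asked what pressure overload did in wild-type hearts. None of the 7 genes passed the test in WT-TAC against WT-Sham, while 0.935% of the 14442 genes tested did (0.921% higher and 0.0138% lower). A gene passed when its limma p, adjusted by Benjamini and Hochberg, was under 0.1 with at least a 1.5-fold difference. At an unadjusted limma p under 0.05, 1 of the 7 passed, beside 3973 of the 14442 genes. Limma-voom on recovered fragments also called 0 of the 7. For Lpl the difference was -0.73 on the log2(FPKM + 1) scale (SE 0.29, 95% interval -1.42 to -0.04, limma adjusted p = 0.179), and for Cd36 it was -0.64 (SE 0.27, interval -1.29 to 0.0045, adjusted p = 0.181). Gpihbp1 differed by -0.53 (interval -1.15 to 0.09), Fabp3 by -0.51 (-1.25 to 0.23), Vldlr by -0.43 (-1.0003 to 0.13) and Acsl1 by -0.43 (-1.05 to 0.19), with adjusted p between 0.204 and 0.269. Slc27a1 differed by 0.20 (interval -0.29 to 0.70, adjusted p = 0.493). The median of the 7 was -0.51, beside 0.39 for all genes tested.

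These values turned on which WT-TAC library was kept. Without WT-TAC2, 6 of the 7 genes were called lower, all but Slc27a1, where 50.5% of all genes were called and 6.51% called lower, with limma adjusted p between 0.000336 for Lpl and 0.00491 for Gpihbp1. WT-TAC was then the single library WT-TAC1, assumed to vary like the libraries of the other groups, here and wherever one WT-TAC library was left out. Without WT-TAC1, none was called, and the median of the 7 was -0.08, with Lpl at -0.29 (interval -0.56 to -0.02, adjusted p = 0.295) and Slc27a1 at 0.44 (0.03 to 0.86, adjusted p = 0.295). Both WT-TAC libraries lay below both WT-Sham libraries for 3 of the 7, Lpl, Cd36 and Vldlr, as did 7.09% of all genes tested. None of the 7 had both WT-TAC libraries above, as 52.5% of all genes did. For Vldlr the nearest pair, 104.24 and 104.27 FPKM, was all but equal. Scaling by median of ratios moved the median of all genes from 0.39 to -0.02 and that of the 7 to -0.99, again with none called.

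The same question was asked in fat-1 hearts. None of the 7 passed in Fat1-TAC against Fat1-Sham, where 0.00692% of all genes did, and limma-voom called none of them. At an unadjusted limma p under 0.05 none of the 7 passed either, beside 373 of the 14442 genes. Fabp3 differed by 0.40 (SE 0.31, 95% interval -0.34 to 1.14) and Gpihbp1 by 0.19 (-0.43 to 0.81). Slc27a1 differed by 0.11 and Cd36 by -0.06, and Lpl by -0.28 (-0.97 to 0.42), Acsl1 by -0.22 (-0.84 to 0.40) and Vldlr by -0.18 (-0.75 to 0.39). All 7 had a limma adjusted p of 1. The Fat1-TAC libraries lay above the Fat1-Sham libraries for Fabp3, Slc27a1 and Gpihbp1, 3 of the 7 beside 26.8% of all genes. They lay below for the other 3 that did not overlap, Lpl, Acsl1 and Vldlr, beside 21.5% of all genes. The main fit shared its estimate of spread over all 4 groups, so the WT-TAC libraries widened these intervals too. Replicates correlated at 0.898 in WT-TAC and at 0.981 to 0.985 in the other groups. With only Fat1-TAC and Fat1-Sham fitted, 3 of the 7 were at an unadjusted limma p under 0.05. So were 2134 of the 14442 genes, and none was called.

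Lpl and Vldlr had both TAC libraries below both sham libraries in each genotype. Of all genes, 7.09% had this order in wild-type and 21.5% in fat-1 hearts, and the share with both was not computed. For Vldlr the wild-type order rested on 104.24 against 104.27 FPKM. Lpl was 1 of the 7 with all 4 TAC libraries below all 4 sham libraries, as were 1.45% of the genes tested, while 7.82% had all 4 above. The mean of the 2 surgery effects, a contrast added after this order was seen, was -0.50 for Lpl, a level 0.706 times that in sham (SE 0.21, 95% interval -0.99 to -0.01, limma adjusted p = 0.313). That did not pass, nor did any other gene of the 14442, so 0% were called, with 2279 at an unadjusted p under 0.05 and 0 called by limma-voom. For the other 6 members the mean surgery effect ran from -0.35 for Cd36 to 0.16 for Slc27a1, each with an interval that held 0. Without WT-TAC2, Lpl was called (-0.72, limma adjusted p = 0.00071), where 25.5% of all genes were called and 1.39% called lower, and without WT-TAC1 it was at -0.28 (interval -0.46 to -0.11, adjusted p = 0.153).

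The third comparison was that of the genotypes without pressure overload, and no difference was detected. In Fat1-Sham against WT-Sham no gene of the 14442 was called (0%), with 180 at an unadjusted p under 0.05 and 0 by limma-voom, and all 7 members had a limma adjusted p of 1. Vldlr differed by 0.26 (SE 0.24, 95% interval -0.31 to 0.82), Slc27a1 by 0.22 (-0.28 to 0.71) and Acsl1 by 0.18 (-0.44 to 0.80). Cd36, Fabp3 and Lpl differed by 0.13, 0.12 and 0.12, and Gpihbp1 by -0.02 (-0.63 to 0.60). Both Fat1-Sham libraries lay above both WT-Sham libraries for Vldlr, Cd36 and Lpl, 3 of 7 beside 15.5% of all genes. None lay below, as 16.5% of all genes did. The intervals again used the spread of all 4 groups. With only Fat1-Sham and WT-Sham fitted, 1 of the 7 was at an unadjusted limma p under 0.05. So were 589 of the 14442 genes, and none was called.

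Under pressure overload the means of all 7 genes were higher in the fat-1 than in the wild-type hearts, but none of the 7 passed in Fat1-TAC against WT-TAC, where 1.43% of all genes did (0.0346% higher and 1.39% lower). Fabp3 was the furthest apart, at a mean of 3754 ± 284 FPKM (SD, n = 2) against 1914 ± 781 (SD, n = 2), a difference of 1.03 on the log2(FPKM + 1) scale (SE 0.31, 95% interval 0.29 to 1.77, limma adjusted p = 0.159). Cd36 differed by 0.71 (interval 0.06 to 1.36, adjusted p = 0.166) and Gpihbp1 by 0.70 (0.09 to 1.32, adjusted p = 0.164). With Fabp3, these were the 3 members at an unadjusted limma p under 0.05, beside 4253 of the 14442 genes. Lpl differed by 0.57 (-0.13 to 1.26), Vldlr by 0.51 (-0.05 to 1.08) and Acsl1 by 0.39 (-0.23 to 1.01), with adjusted p between 0.182 and 0.297. Slc27a1 differed by 0.12 (-0.37 to 0.62, adjusted p = 0.672). The median of the 7 was 0.57, beside -0.40 for all genes. Limma-voom called none of the 7.

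Both Fat1-TAC libraries lay above both WT-TAC libraries for 5 of the 7, Fabp3, Cd36, Gpihbp1, Lpl and Vldlr, as did 9.33% of all genes, and none lay below, as 57.1% did. Without WT-TAC2, 6 of the 7 were called higher, with Fabp3 at 1.46 (limma adjusted p = 0.000423), where 53.8% of all genes were called and 7.72% called higher. Without WT-TAC1 none was called. Fabp3 was then at 0.60 (interval 0.25 to 0.96, adjusted p = 0.193), while Lpl stood at 0.13, Acsl1 at 0.00 and Slc27a1 at -0.12. This comparison and that of WT-TAC with WT-Sham share the WT-TAC libraries, so opposite signs in the pair are not separate observations.

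**Figure D2:**
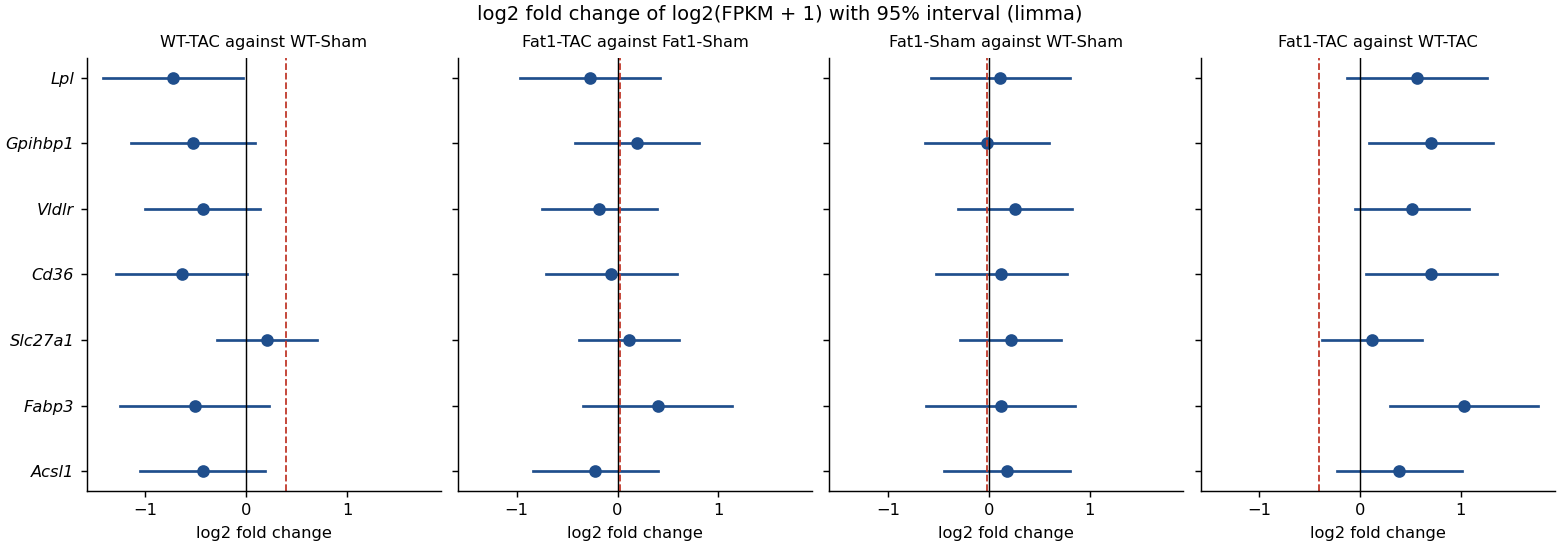
Log2 fold changes of log2(FPKM + 1) for the 7 genes in 4 comparisons (horizontal axes), with points for the limma estimates, bars for the 95% intervals and a dashed line at the median of all 14442 genes tested. In the outer panels, which share the WT-TAC libraries, the median of all genes stands at 0.39 and -0.40 and 6 and 7 of the 7 genes, in that order, lie on the other side of 0 from it; under scaling to cardiomyocyte markers the signs of Acsl1 and Vldlr turn in both of these panels, and those of Lpl and Slc27a1 in the Fat1-TAC against WT-TAC panel.

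The difference between the genotypes in their response to surgery was tested as an interaction. None of the 7 passed, and 0.0692% of all genes did (0.00692% higher and 0.0623% lower). None of the 7 was at an unadjusted limma p under 0.05, beside 1049 of the 14442 genes, and limma-voom called none. Fabp3 had an interaction of 0.91 (SE 0.44, 95% interval -0.13 to 1.96) and Gpihbp1 of 0.72 (SE 0.37, interval -0.15 to 1.59), both with a limma adjusted p of 0.495. Cd36 followed at 0.58, Lpl at 0.45, Vldlr at 0.26, Acsl1 at 0.21 and Slc27a1 at -0.09. Without WT-TAC2, 6 of the 7 were called higher, where 45.8% of all genes were called and 6.43% called higher, and without WT-TAC1 none was and the median of the 7 was 0.02.

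The 12 cardiomyocyte markers summed to 28692 FPKM in WT-TAC1 and to between 52486 and 69154 FPKM in the other 7 libraries. The members were also set against the 12 cardiomyocyte markers within each library, which needs no scaling between libraries. Values are log2 levels minus the mean log2 level of the markers, with the mean of the 4 sham libraries at 0, and carry no test. The share of all genes with the same order of libraries was not computed on this measure. On this measure Fabp3 no longer differed between WT-TAC and WT-Sham by more than its spread, with -0.01 and -0.05 in WT-TAC and 0.10 and -0.08 in WT-Sham. It stood at 0.52 and 0.27 in Fat1-TAC, above the other 6 libraries. The markers themselves did not move as one in Fat1-TAC. Tnni3, Myl2, Myl3 and Pln were higher in both Fat1-TAC libraries than in any other library, with Tnni3 at 6756 and 6771 FPKM. Tnnt2, Ttn and Mybpc3 were at their highest in Fat1-TAC2, at 5895, 223 and 1013 FPKM, but not in Fat1-TAC1. Myh6, Ryr2 and Atp2a2 were lower there than in any other library but WT-TAC1, with Atp2a2 at 3507 and 3628 FPKM. Actc1 and Actn2 did none of these. Fitted on values scaled to these markers, Fabp3 differed by 0.42 in Fat1-TAC against WT-TAC (95% interval 0.13 to 0.71, limma adjusted p = 0.139) and by 0.40 in Fat1-TAC against Fat1-Sham (0.11 to 0.69, adjusted p = 1).

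Lpl was low in all 4 TAC libraries on the same measure, at -0.23 and -0.26 in WT-TAC and -0.29 and -0.28 in Fat1-TAC. The 4 sham libraries ran from -0.06 to 0.08. Here the 2 WT-TAC libraries gave like values although their FPKM differed 1.83-fold. The surgery effect over both genotypes in the fit scaled to the markers was -0.26 (95% interval -0.45 to -0.07, limma adjusted p = 0.424), and it did not pass. The median of all genes was 0.42 in that fit.

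Slc27a1 was higher in WT-TAC on this measure, at 0.85 and 0.43 against -0.26 and 0.18 in WT-Sham. In the fit scaled to the markers it differed by 0.68 there, beside a median of 0.81 for all genes, so most genes moved the same way. Slc27a1 stood at 0.20 and -0.11 in Fat1-Sham and at 0.18 and 0.13 in Fat1-TAC, inside the sham range. Acsl1 was at -0.18 and -0.22 in Fat1-TAC, below the 0.03 and 0.02 of Fat1-Sham and the 0.08 and -0.04 of WT-TAC, and overlapped WT-Sham, at -0.18 and 0.14. Cd36 was at -0.11 and -0.21 in WT-TAC, below all 4 sham libraries, and at 0.18 and -0.31 in Fat1-TAC, the widest spread of the 7 within that group. Vldlr and Gpihbp1 stayed between -0.15 and 0.28 in all libraries. Gpihbp1 is made by endothelial cells, and against 10 endothelial markers it was at -0.36 and -0.09 in WT-TAC and between -0.16 and 0.23 in the sham libraries. Those markers summed to 336 FPKM in WT-TAC1 and to between 444 and 521 FPKM elsewhere.

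**Figure D3:**
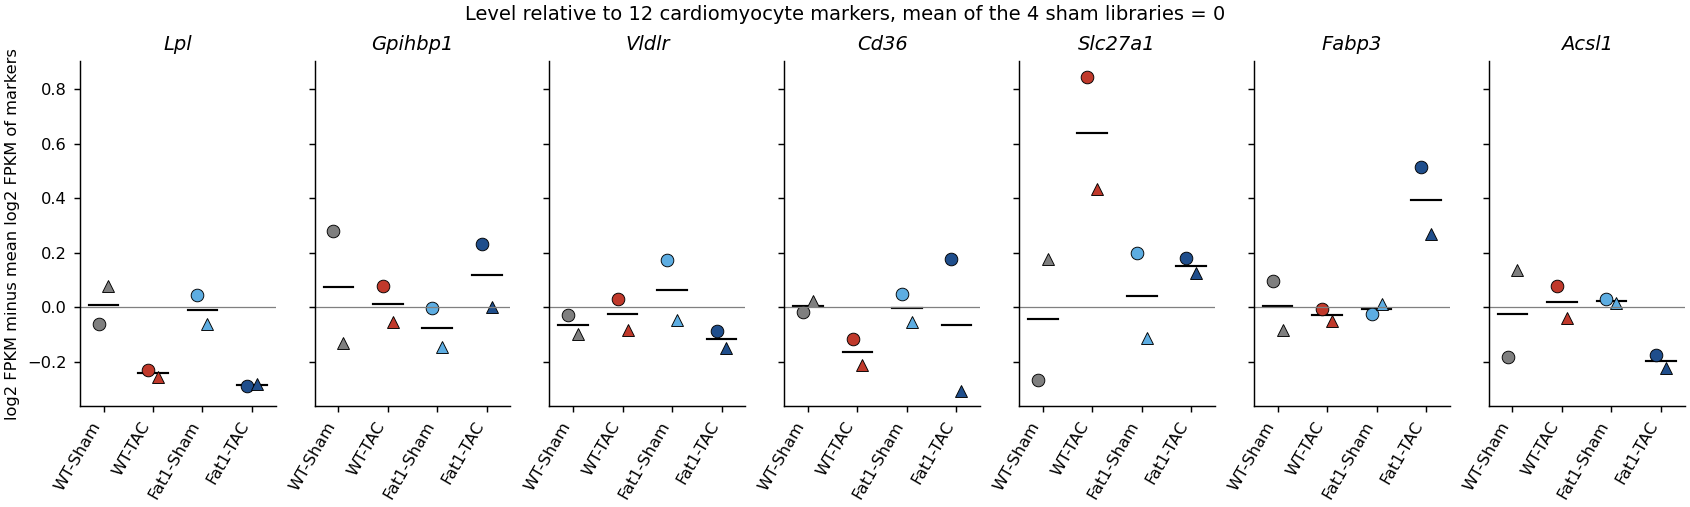
Log2 FPKM of each of the 7 genes minus the mean log2 FPKM of 12 cardiomyocyte markers in the same library (vertical axis), with the mean of the 4 sham libraries at 0, circles for replicate 1, triangles for replicate 2 and lines for group means. Lpl lies between -0.29 and -0.23 in the 4 TAC libraries, Fabp3 reaches 0.52 and 0.27 in Fat1-TAC, and Slc27a1 reaches 0.85 and 0.43 in WT-TAC. In the fit scaled to these markers, the median of all genes was 0.81 in WT-TAC against WT-Sham.

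The balance between Fabp3 and Lpl in Fat1-TAC stood apart from that in the other groups. Cardiomyocyte markers such as Tnni3 and Atp2a2 also moved apart there, so a shift of this kind was not particular to Fabp3 and Lpl. There were 2.31 and 1.94 Fabp3 per Lpl, as a ratio of FPKM, in the Fat1-TAC libraries and between 1.18 and 1.54 in the other 6. Fabp3 made up 55.2% and 52.8% of the summed FPKM of the 7 genes in Fat1-TAC and between 41.2% and 46.6% elsewhere. Lpl made up 23.9% and 27.3% in Fat1-TAC, 29.5% and 30.2% in WT-TAC and between 31.7% and 34.8% in the sham libraries. These ratios are set within a library and were not tested.

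Members of 3 families have relatives made by other cell types, and the share of the heart form within each family was computed. Acsl1 made up 94.4% to 96.2% of the summed FPKM of the Acsl genes in the sham and Fat1-TAC libraries, 79.8% in WT-TAC1 and 91.1% in WT-TAC2. Acsl5, a synthetase found in many tissues, took 11.8% and 5.33% in WT-TAC and between 1.67% and 2.99% elsewhere. Fabp3 made up 81.6% and 85.6% of the Fabp genes in WT-TAC and 90.5% to 93.9% in the other 6 libraries. Fabp4, the form of capillary endothelium and adipocytes, took 14.7% and 13.6% in WT-TAC and 5.69% to 8.84% elsewhere, and Fabp5 took 3.63% in WT-TAC1 and under 1% in the other 7. Slc27a1 made up 80.8% of the Slc27a genes in WT-TAC1, 92.3% and 91.7% in Fat1-TAC and 86.4% to 88.2% in the other 5. Most of the remainder was Slc27a4, at 6.81% and 6.93% in Fat1-TAC and 8.40% to 11.7% elsewhere.

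**Figure D4:**
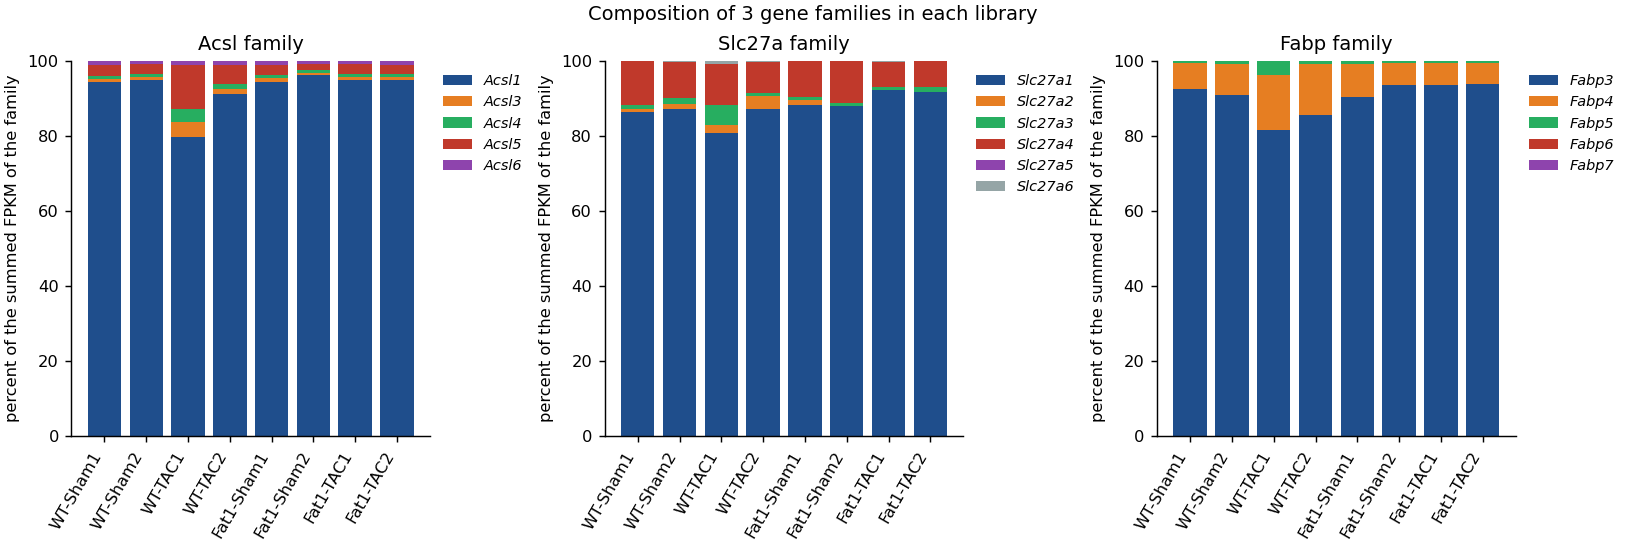
Percent of the summed FPKM of the Acsl, Slc27a and Fabp families (vertical axes) held by each gene in each of the 8 libraries, as stacked bars. Acsl1, Slc27a1 and Fabp3, the lowest segment of each bar, hold their smallest share in WT-TAC1, at 79.8%, 80.8% and 81.6%.

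A wider list of 61 genes of the same pathway held 56 that were listed and 49 that passed the filter. In WT-TAC against WT-Sham none of the 49 was called, 33 lay above 0, and their median was 0.29 beside 0.39 for all genes. Of the same 49, 3 were called when Fat1-TAC was set against WT-TAC, all lower, beside 1.43% of all genes, and the median was -0.27 beside -0.40. None was called in Fat1-TAC against Fat1-Sham, in Fat1-Sham against WT-Sham or in the interaction. Limma-voom called none of the 49 in any of these.

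The 3 called lower were Acsl5, Angptl4 and Apoe. Angptl4, a secreted inhibitor of lipoprotein lipase, was at 8.76 and 9.60 FPKM in WT-Sham, 18.5 and 17.4 in WT-TAC, 16.9 and 5.70 in Fat1-Sham and 3.16 and 3.73 in Fat1-TAC. The Fat1-TAC libraries were the lowest of the 8 and the WT-TAC libraries the highest, and the difference between them was -2.10 (SE 0.41, limma adjusted p = 0.0997). As a ratio of FPKM, Lpl to Angptl4 stood at 218 and 215 in WT-Sham, 47.8 and 92.8 in WT-TAC, 124 and 387 in Fat1-Sham and 542 and 492 in Fat1-TAC. Acsl5 was at 40.8 and 27.8 FPKM in WT-TAC and between 10.2 and 15.6 FPKM elsewhere, a difference of -1.38 in Fat1-TAC against WT-TAC (SE 0.25, adjusted p = 0.0865). Apoe, a ligand of lipoprotein receptors that macrophages also make, was at 1199 and 871 FPKM in WT-TAC and between 441.5 and 691 FPKM elsewhere, a difference of -1.11 (SE 0.22, adjusted p = 0.0997). Without WT-TAC1 none of the 47 then tested was called in this comparison, with Angptl4 at -2.06, Acsl5 at -1.11 and Apoe at -0.88 and adjusted p between 0.174 and 0.190, and without WT-TAC2 25 of the 47 then tested were (9 higher and 16 lower), where 53.8% of all genes were called. The count was also 0 without WT-Sham1, WT-Sham2, Fat1-TAC1 or Fat1-TAC2, and 1 without either Fat1-Sham library. The 8 macrophage markers summed to 641 and 492 FPKM in WT-TAC and to between 301 and 426 FPKM elsewhere, and the part of these cells and of adipocytes in the 3 genes was not tested.

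By groups of the list, the partners of Lpl had 10 of 13 tested genes above 0 in WT-TAC against WT-Sham and 1 of 13 in Fat1-TAC against WT-TAC, where 2 were called lower. Of all genes tested, 79.3% lay above 0 in the first of these comparisons and 22.0% in the second, so most of the table had the same direction. After Apoe its most abundant members were Pnpla2, the lipase of stored triglyceride, between 168 and 280.5 FPKM, and Angptl2, between 30.2 and 53.9 FPKM. The lipoprotein receptors had 5 of 6 above 0 in WT-TAC against WT-Sham and 0 of 6 in Fat1-TAC against WT-TAC, with none called. Lrp1, a large receptor for remnant particles, was at 103 and 156 FPKM in WT-Sham, 147 and 182 in WT-TAC and between 87.3 and 112 in the fat-1 libraries, and Scarb2 and Scarb1 ran from 54.7 to 69.6 and from 20.0 to 30.6 FPKM.

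Genes of endothelial fatty acid transport had 5 of 8 above 0 in WT-TAC against WT-Sham and 4 of 8 in Fat1-TAC against WT-TAC. Vegfb, a growth factor that acts on endothelial fatty acid uptake, was at 122.5 and 213 FPKM in WT-TAC and between 203 and 249 FPKM elsewhere, so only WT-TAC1 was low. Tcf15, an endothelial transcription factor of fatty acid uptake, was at 27.9 and 14.4 FPKM in WT-Sham, 13.3 and 19.1 in WT-TAC, 29.3 and 24.7 in Fat1-Sham and 31.9 and 28.5 in Fat1-TAC. The TAC libraries of the genotypes differed by 0.88 (SE 0.31, limma adjusted p = 0.163). Fabp4 ran from 196 to 392.4 FPKM, highest in WT-TAC2.

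Among other carriers, 5 of 8 lay above 0 in WT-TAC against WT-Sham and 3 of 8 in Fat1-TAC against WT-TAC. Got2, the plasma membrane fatty acid binding protein and mitochondrial aspartate aminotransferase, ran from 213 FPKM in WT-TAC1 to 446, Cav1 from 215 to 406 and Cd151 from 156 in WT-TAC1 to 219.6 FPKM. Of the genes of activation and acyl-CoA handling, 8 of 14 lay above 0 in the first comparison and 7 of 14 in the second. Acot13, an acyl-CoA thioesterase of mitochondria, was at 234 and 372 FPKM in WT-TAC and between 399.8 and 499 FPKM elsewhere, a difference of -0.67 from WT-Sham (SE 0.23, limma adjusted p = 0.175). Acss1 ran from 178 FPKM in WT-TAC1 to 374, and Dbi, the acyl-CoA binding protein, from 214 to 423 FPKM in WT-TAC2.

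The genes most alike to each member over the 8 libraries, among 9458 tested genes of mean 5 FPKM or more, had Pearson correlations of log2(FPKM + 1) between 0.957 and 0.997. These values share library, depth and the low point of WT-TAC1, and are given as descriptions. For Lpl the nearest were Aldoa, Slc25a12 and Hrc, for Acsl1 Map3k20, Popdc2 and Zfp651, and for Vldlr Hadha, Akr7a5 and Trim54. Fabp3 was nearest to Adk, Mb and 2410015M20Rik, of which Mb encodes myoglobin. Cd36 was nearest to Gatb, Cd59a and Hand2, the last a cardiac transcription factor, and kept the same 3 in the 7 libraries without WT-TAC1, at 0.933 to 0.952. Gpihbp1 was nearest to the mitochondrial genes Atp5h and Ndufb11 and to S100a1, and Slc27a1 to Slc2a8, Pak6 and Dact3. Without WT-TAC1 the nearest to Lpl were Slc25a3, Slc25a12 and Lynx1, to Acsl1 Map3k20, Fbxl22 and Zfp706, and to Vldlr Arhgef10l, Gja1 and Pacsin2. Those nearest to Fabp3 were then Mrpl54, Znhit6 and Ethe1, and to Gpihbp1 Atp5h, Psmb7 and Uqcrc2.

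Between members, the same library set much of the likeness. Fabp3 and Lpl correlated at 0.746 over 8 libraries and at -0.232 over the 7 without WT-TAC1, Lpl and Gpihbp1 at 0.805 and -0.208, and Gpihbp1 and Acsl1 at 0.725 and -0.555. Lpl and Acsl1 stayed at 0.965 and 0.764, and Fabp3 and Gpihbp1 at 0.945 and 0.789. Slc27a1 correlated with the other 6 members at 0.210 to 0.453 over 8 libraries.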

How the data were processed

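RNA sequencing of 8 heart libraries, 2 per group, was analysed. Per the labels, the samples of a group were independent, and groups were taken from the sample titles. With 2 samples per group, p-values measure only the spread between these samples. The authors deposited FPKM values for 25929 genes after quality control and mapping, with HISAT2 and mm10 or GRCm38 named in the submitters' processing notes, and further settings are not given in the sources used here. Coordinates are those of GENCODE M21 (GRCm38). Whole fragments were recovered from the FPKM of all genes (100% within 0.001 fragments) and gave the depth, from 14163994 to 21218331 fragments. An annotated length gave whole fragments for 9466 genes, Fabp3 among them. For 16463 genes, including the other members, the smallest length that gave whole fragments was searched for and used.

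From the deposited FPKM, log2(FPKM + 1) was computed, genes reaching 1 FPKM in 2 libraries entered the test, and limma 3.58.1 (R 4.3.3) was fitted with 4 group means and a trend, after a test on simulated data. Calls needed an adjusted p (Benjamini-Hochberg) below 0.1 together with a fold change above 1.5 or below 0.667. The 7 genes, the 61 genes of the wider list, the markers and the naming rule were chosen with earlier results of these data known. Named genes were the 7 members, pathway genes called, the 3 most abundant in each of 5 subgroups, and the 3 genes most alike to each member. The genes most alike to Slc27a1 without WT-TAC1 are not reported here. The 8 fibroblast markers summed to 567 to 1079 FPKM, the 6 skeletal muscle markers to 501 to 953, the 4 blood markers to 4181 to 10436 and the 4 hypertrophy markers to 835 to 1061. Alternatives covered scaling, filters, the pseudocount, the groups fitted, the replicate block, each library left out and limma-voom on recovered fragments.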

Additional observations from a re-analysis of the deposited data

Results flagged for a closer look

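Angptl4, the lipoprotein lipase inhibitor, lay on opposite sides of its sham level after TAC in the 2 genotypes. Both WT-TAC libraries (18.5 and 17.4 FPKM) lay above both WT-Sham libraries (8.76 and 9.60 FPKM), and both Fat1-TAC libraries (3.16 and 3.73 FPKM) lay below both Fat1-Sham libraries (16.9 and 5.70 FPKM). Neither order was rare taken alone, as 52.5% of all genes tested had the first and 21.5% had the second. The share of genes with both was not computed. The interaction of genotype and surgery was -2.20 on the log2(FPKM + 1) scale (SE 0.59, 95% interval -3.58 to -0.82, limma adjusted p = 0.495), so the difference did not pass the test. Over the alternatives the interaction ran from -2.91 to -1.49. It passed only without WT-TAC2, where WT-TAC was the single library WT-TAC1 and a large part of all genes passed too. The 10 adipocyte markers summed to 270 and 381 FPKM in WT-Sham, 747 and 1045 in WT-TAC, 373 and 160 in Fat1-Sham and 70.3 and 371 in Fat1-TAC, and their part in the result was not tested. Groups of 2 libraries were too small to look for single outlying values.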

How the results depend on the processing

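Of the differences of the 7 genes under the alternatives, 690 kept their direction and their side of the threshold, 19 passed only in the alternative, and 33 changed sign, from values of 0.0179 to 0.567 in size; the causes were not tested. The number of the 7 called ran from 0 to 6 with 1 library left out in WT-TAC against WT-Sham, Fat1-TAC against WT-TAC and the interaction, and from 0 to 1 in the mean TAC effect. For the pathway genes it ran from 0 to 19, 0 to 25, 0 to 15 and 0 to 8 in the same order. Each of these maxima came without WT-TAC2, where 47 pathway genes were tested rather than 49 and WT-TAC was the single library WT-TAC1. Of all genes, 50.5%, 53.8%, 45.8% and 25.5% were called in that fit, again in this order. In Fat1-TAC against WT-TAC the pathway count was 0 under median-of-ratios scaling, quantile normalization and a mean of 5 FPKM or more. It was also 0 with a pseudocount of 0.1, a fit of 2 groups, the replicate block and limma-voom. With scaling to cardiomyocyte markers it was 5 of 49, beside 2.07% of all genes. Under median-of-ratios scaling Slc27a1 was at -0.27 in WT-TAC against WT-Sham, 0.33 in the interaction and -0.10 in the mean TAC effect, and Gpihbp1 at 0.02 in Fat1-Sham against WT-Sham. Under quantile normalization Slc27a1 was at -0.044 and 0.20 in the first 2 of these and Fabp3 at 0.15 in the mean TAC effect. With scaling to cardiomyocyte markers, which moved the median of all genes to 0.81 and -0.94 in the WT-TAC comparisons, Acsl1 and Vldlr were at 0.044 and 0.038 in WT-TAC against WT-Sham. Slc27a1, Lpl, Acsl1 and Vldlr were then at -0.48, -0.043, -0.22 and -0.091 in Fat1-TAC against WT-TAC, Cd36, Fabp3 and Lpl at -0.0066, -0.0125 and -0.017 in Fat1-Sham against WT-Sham, Lpl, Acsl1 and Vldlr at -0.026, -0.27 and -0.22 in the interaction, and Fabp3 and Gpihbp1 at 0.18 and 0.064 in the mean TAC effect. With 1 library left out, Slc27a1 ran from -0.038 to 0.44 in WT-TAC against WT-Sham, from -0.12 to 0.36 in Fat1-TAC against WT-TAC and from -0.34 to 0.15 in the interaction, Cd36 from -0.25 to 0.13 in Fat1-TAC against Fat1-Sham, and Gpihbp1 from -0.23 to 0.20 in Fat1-Sham against WT-Sham. Acsl1 ran from -0.18 to 0.60 and Vldlr from -0.13 to 0.64 in the interaction, and Fabp3 from -0.27 to 0.16 and Gpihbp1 from -0.36 to 0.0175 in the mean TAC effect. Over all genes, WT-TAC against WT-Sham called 133 higher and 2 lower, and Fat1-TAC against WT-TAC 5 and 201. These counts were 23 and 0, and 1 and 19, under median-of-ratios scaling, 16 and 0, and 1 and 13, under quantile normalization, 199 and 2, and 2 and 298, with scaling to cardiomyocyte markers, and 286 and 7, and 8 and 342, with no filter. They were 9 and 0, and 1 and 14, at a mean of 5 FPKM or more, 33 and 0, and 2 and 31, with a pseudocount of 0.1, 97 and 1, and 1 and 40, with 2 groups fitted, and 6 and 0, and 2 and 89, with limma-voom. Without WT-TAC2 they were 6155 and 910, and 1079 and 6444, and without WT-TAC1 19 and 1, and 2 and 23. Replicate numbers did not pair the samples (correlations of deviations from -0.135 to 0.024), and with the replicate block the counts were 52 and 0, and 1 and 51, with 0 of the 7 called. With the Fat1-Sham numbers crossed they were 53 and 0, and 2 and 204, with 3 pathway genes and 0 of the 7. The crossed block, the mean TAC effect and the pathway counts under alternatives were added after the data were seen. With 2 libraries a group, the spread between libraries, and not the depth, set what could be detected for the 7 genes.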
